A study of Mus musculus with 8 samples.

Results

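Interferon-stimulated genes are the genes that cells switch on after interferon, the cytokine released when viral or other foreign nucleic acid is sensed. The 39 genes described here were chosen by name as well known members of that response in the mouse. Earlier results of these data were known when the list was made. All 39 were found by symbol among the 55401 gene rows of the count table, and all 39 passed the filter on low counts that left 16964 genes to test. RNA was sequenced from 8 mouse libraries described as airway cells, all taken 10 days after tamoxifen. Each carried a Cre under the promoter of Scgb1a1, which club cells, the secretory cells of small airways, use for their most abundant product. The 4 mutant-labelled libraries carried both floxed copies of Cdh1 (genotype Scgb1a1cre; Cdh1F/F), the gene of the adhesion protein E-cadherin. The 4 control libraries carried the same Cre with 1 floxed and 1 wild-type copy (Scgb1a1cre; Cdh1F/+), so they too received tamoxifen and could recombine 1 allele. Deletion is therefore directed mainly at club cells and not at every cell of a library. Strain, age and sex are not given in the sources used here.

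Type I and type III interferons signal through receptor-bound JAK kinases to a complex that holds STAT2 and IRF9 and binds a DNA element called the interferon-stimulated response element (ISRE). Interferon gamma, the type II interferon, acts at a different element, the gamma-activated site (GAS). Airway epithelium is a main site of this response because it is the first tissue that inhaled viruses meet, and its products sense viral RNA, block translation, degrade RNA or trap particles.

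The DNA just before the start site often carries the elements through which these genes respond. Windows were taken from RefSeq's promoter table for GRCm38.p6, which held 30 of the 39 genes, and the 250 bases before each start were searched on both strands. The ISRE was searched as GAAA, NN, GAAA without gaps and the GAS as TTC, NNN, GAA, where N is any base. The ISRE letters occurred before 14 of the 30 genes (46.7%), against 3.46% of all 27025 genes in the table. The GAS letters occurred before 8 of the 30 (26.7%), against 8.13% of all genes. Below are the 200 bases before the start of 9 members from 6 of the roles described later, printed 5′ to 3′ on the gene's own strand. Capitals mark each match to the ISRE or, in Irf1, to the GAS. Isg15, Ifit1, Ifit3, Ifit3b, Oas3, Rsad2 and Gbp2 are shown for their ISRE matches, Irf1 for its GAS match, and Oasl1 because it had the largest fold change of the genes that passed the test while its window held neither set of letters.
Oasl1 (chr5:114923040-114923239, plus strand): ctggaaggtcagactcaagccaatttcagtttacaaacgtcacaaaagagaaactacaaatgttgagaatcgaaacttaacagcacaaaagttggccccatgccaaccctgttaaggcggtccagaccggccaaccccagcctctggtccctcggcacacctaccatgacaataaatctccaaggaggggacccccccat
Isg15 (chr4:156200819-156201018, minus strand): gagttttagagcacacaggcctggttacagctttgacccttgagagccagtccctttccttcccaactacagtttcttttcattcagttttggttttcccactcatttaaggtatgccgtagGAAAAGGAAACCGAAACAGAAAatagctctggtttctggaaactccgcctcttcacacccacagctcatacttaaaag
Oas3 (chr5:120777660-120777859, minus strand): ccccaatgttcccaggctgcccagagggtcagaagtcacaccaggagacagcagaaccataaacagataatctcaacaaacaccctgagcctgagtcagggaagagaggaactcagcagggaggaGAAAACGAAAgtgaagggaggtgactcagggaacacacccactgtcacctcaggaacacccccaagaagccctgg
Ifit1 (chr19:34640689-34640888, plus strand): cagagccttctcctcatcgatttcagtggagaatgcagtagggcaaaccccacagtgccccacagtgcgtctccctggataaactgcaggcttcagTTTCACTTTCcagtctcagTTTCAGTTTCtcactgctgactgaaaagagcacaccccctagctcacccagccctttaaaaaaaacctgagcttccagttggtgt
Ifit3 (chr19:34583329-34583528, plus strand): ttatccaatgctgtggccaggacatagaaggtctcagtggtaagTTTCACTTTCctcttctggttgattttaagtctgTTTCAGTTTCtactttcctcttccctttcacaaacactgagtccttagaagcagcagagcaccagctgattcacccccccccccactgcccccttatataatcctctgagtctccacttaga
Ifit3b (chr19:34607757-34607956, plus strand): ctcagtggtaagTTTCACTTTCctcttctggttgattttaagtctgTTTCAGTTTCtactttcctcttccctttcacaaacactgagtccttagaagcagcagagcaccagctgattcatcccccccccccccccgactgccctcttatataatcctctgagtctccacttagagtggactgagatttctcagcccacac
Rsad2 (chr12:26456453-26456652, minus strand): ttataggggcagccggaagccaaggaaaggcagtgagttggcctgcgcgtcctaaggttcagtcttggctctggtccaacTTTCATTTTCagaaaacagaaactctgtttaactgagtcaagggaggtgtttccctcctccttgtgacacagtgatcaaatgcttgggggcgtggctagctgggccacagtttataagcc
Gbp2 (chr3:142620463-142620662, plus strand): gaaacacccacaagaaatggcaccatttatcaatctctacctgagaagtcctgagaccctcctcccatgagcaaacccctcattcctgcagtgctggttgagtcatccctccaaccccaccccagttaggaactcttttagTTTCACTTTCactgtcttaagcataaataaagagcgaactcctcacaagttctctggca
Irf1 (chr11:53769814-53770013, plus strand): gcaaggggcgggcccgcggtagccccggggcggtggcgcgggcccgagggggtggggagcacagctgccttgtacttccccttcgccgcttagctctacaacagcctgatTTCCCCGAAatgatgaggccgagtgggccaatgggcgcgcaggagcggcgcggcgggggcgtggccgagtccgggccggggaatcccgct
Isg15 held 3 overlapping ISRE matches, from 78 to 57 bases before the start. Ifit1, Ifit3 and Ifit3b held 2 matches each, on the opposite strand. The windows of Ifit3 and Ifit3b were 96.0% identical over the 174 aligned columns they share. A match is a description of the letters and not a binding site, and the absence of one in Oasl1 says only that these letters are not in this window. The median log2 fold change, mutant-labelled over control, was 0.16 over the 14 genes with the ISRE letters and -0.02 over the 16 genes without them, and the ranges overlapped, from -0.38 (Gbp2) to 1.04 (Oas3) with them and from -0.29 (Ifi47) to 1.36 (Oasl1) without them. By edgeR 0 of the 14 and 1 of the 16 were called higher, where 5.45% of all genes tested were. Oas2 and Usp18, which were also called higher, had no window and could not be placed on either side. For the GAS letters the median was -0.04 over the 8 genes with them and 0.11 over the 22 without.

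Total counts ran from 15111663 to 21673654 per library, and levels are given as CPM, counts scaled by library size. A gene with 0 counts may have up to 3, or 0.136 to 0.207 CPM, by counting error alone. Cdh1 had 406, 409.8, 401 and 396 CPM in the mutant-labelled libraries, against 322, 428, 388 and 395 CPM in controls (log2 fold change 0.07, adjusted p = 0.648). The sum over the whole gene does not show which exons are deleted, so the level of Cdh1 gave no check of the labels. No 2 libraries of a group agreed within sampling noise, and the labels do not state that each is a separate animal. The p-values thus reflect variation among these libraries, which may be technical. The series text describes depletion of immune and endothelial cells, selection on EPCAM and a GFP sort, but no label says which fraction a library holds. Markers of both depleted kinds of cell were present: the summed level of 4 leukocyte markers was 393 to 443 CPM in mutant-labelled and 253 to 652 CPM in control libraries, and that of 8 endothelial markers 3127 to 3500 and 3844 to 4920 CPM. The club cell gene Scgb1a1 averaged 4177 CPM in mutant-labelled and 13403 CPM in control libraries. Of 7 epithelial markers, 5 were higher in mutant-labelled libraries (Epcam, Krt8, Krt18, Krt19 and Cldn7), where 5.45% of all genes tested were. The median log2 fold change over the list was 0.84. The 7 summed to 1784 to 2059 CPM in mutant-labelled libraries, against 1002 to 1343 CPM in controls. Of the 8 endothelial markers, 4 were lower, where 2.36% of all genes tested were. The part of these shifts in the levels of the interferon-stimulated genes was not tested. In bulk samples, fewer cells of a type and less RNA per cell cannot be told apart.

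Over all genes the controls fell into pairs: chi-square per gene was 4.75 between controls 2 and 3, 20.02 between controls 1 and 4, and 35.9 to 45.4 across the pairs, against 6.13 to 12.8 between mutant-labelled libraries. In the interferon-stimulated genes control 1 stood apart. It was the highest control for 33 of the 39 members (84.6%), and the highest control for 24.7% of all genes tested. Its level was 1.38 times the mean of the other 3 controls at the median member, against 0.976 times at the median of all genes. It lay above all 4 mutant-labelled libraries for 18 members (46.2%, against 26.2% of all genes). All mutant-labelled libraries lay above controls 2 to 4 for 21 members, where 14.8% of all genes did so. Control 1 was set apart by the levels of these same members, so that count is no separate support for a difference. The mean log2 level of the members relative to each gene's own mean was 0.195, 0.005, 0.350 and 0.053 in mutant-labelled libraries 1 to 4, against 0.231 in control 1 and -0.288, -0.316 and -0.229 in controls 2 to 4. Control 1 sat among the mutant-labelled libraries, and the other 3 controls sat below all of them. Among mutant-labelled libraries, library 3 was the highest for 30 members (76.9%, against 25.7% of all genes) and library 2 the lowest for 23 (59.0%, against 22.8% of all genes).

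Of the 39 interferon-stimulated genes, 3 were higher in mutant-labelled libraries and 0 lower. The test was the quasi-likelihood test of edgeR, with Benjamini-Hochberg adjustment over all 16964 genes and a threshold of 0.05. The 3 were Oasl1, Oas2 and Usp18. Across all genes tested, 5.45% were higher and 2.36% lower, so the members' count is near the background. At an unadjusted p under 0.05 there were 14 members (35.9%), 12 higher and 2 lower, against 25.2% of all genes. The median log2 fold change was 0.17 over the members and -0.006 over all genes tested, and 26 members (66.67%) had a positive value, against 49.06% of all genes. All 4 mutant-labelled libraries lay above all 4 controls for 5 members (Oasl1, Oas2, Oas3, Usp18 and Dhx58), where 9.75% of all genes did so. They lay below all controls for 3 members (Irf1, Gbp2 and Ifi47), where 7.07% of all genes did so. DESeq2 called 9 members higher and 2 lower, where it called 7.88% and 5.54% of all genes.

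**Figure D1:**
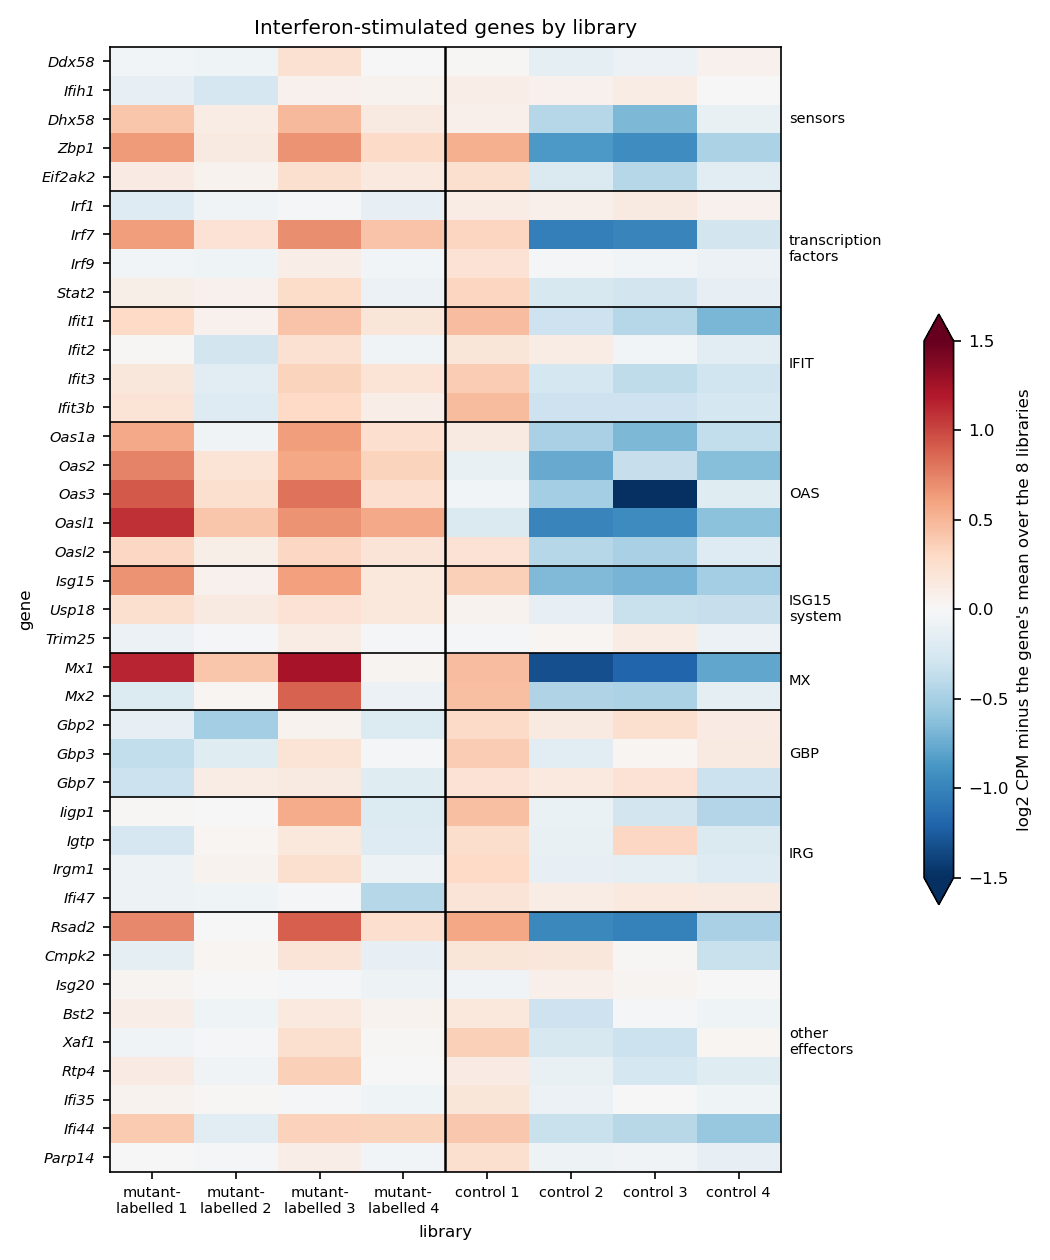
Heat map of the 39 genes (rows, grouped by role) in the 4 mutant-labelled and 4 control libraries (columns); colour is log2 CPM minus the gene's mean over the 8 libraries, with the scale ending at 1.5 in both directions. The OAS rows are above their mean in all mutant-labelled libraries except Oas1a in library 2, and control 1 is the warmest control column for most rows.

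Without control 1, 17 members were higher and 0 lower by the same test, with 8.86% of all genes higher and 6.52% lower in that fit. The 17 were all 5 OAS genes, Ifit1, Ifit3 and Ifit3b, Isg15 and Usp18, the sensors Dhx58, Zbp1 and Eif2ak2, and Irf7, Mx1, Rsad2 and Ifi44. The median log2 fold change over all 39 was then 0.30. Control 1 was singled out by the levels of these same members, so its omission raises most of their fold changes. The added calls are thus no separate support for a difference. Without controls 2 and 3, 1 member was higher (Oasl1) and 0 lower, in a fit that called 3.56% of all genes higher and 1.26% lower, and the median was 0.04. Without controls 1 and 4, 19 members were higher and 1 lower (Irf1), in a fit that called 21.5% of all genes higher and 19.2% lower. The number of members called thus depended on which controls were kept. Each omission of another single library left 2 members higher, Oasl1 and Oas2, in fits that called 3% to 7.05% of all genes higher, and the omission of mutant-labelled library 3 also made Gbp2 lower.

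Control 1 had the highest level of some immune cell genes and not of others. Ptprc, the pan-leukocyte protein CD45, had 93.2 to 114 CPM in mutant-labelled libraries, against 204 CPM in control 1 and 64.1 to 101 CPM in the other controls. Siglech, a marker of plasmacytoid dendritic cells, which are strong producers of type I interferon, had 2.30 to 5.60 CPM in mutant-labelled libraries, against 15.3 CPM in control 1 and 1.65 to 3.89 CPM in the other controls. The T and NK cell markers summed to 46.4 to 55.8 CPM in mutant-labelled libraries, against 74.0 CPM in control 1 and 34.7 to 58.0 CPM in the other controls. Siglech was picked after its values were seen. The 5 plasmacytoid dendritic cell markers together, a list that holds Siglech and also Bst2, summed to 272 to 319 CPM in mutant-labelled libraries. In control 1 the sum was 333 CPM and in the other controls 268 to 298 CPM, a far smaller excess than that of Siglech. That sum is weighted to genes of higher level, such as the member Bst2 at 141 CPM in control 1. The median log2 fold change over the 5 markers was -0.70 with all libraries and 0.19 without control 1. Control 1 was not the highest control for neutrophil markers (104 to 113 CPM in mutant-labelled libraries, 97.2 CPM in control 1 and 15.2 to 148 CPM in the other controls) or B cell markers (45.1 to 75.9 CPM in mutant-labelled libraries, 39.7 CPM in control 1 and 32.9 to 77.0 CPM in the other controls). Between groups, edgeR called 0 of the 4 leukocyte, 0 of the 8 T and NK cell and 0 of the 5 plasmacytoid dendritic cell markers, and 0 of these had an unadjusted p under 0.05 or a call by DESeq2. The same held for the 4 B cell markers. Of 5 neutrophil markers tested edgeR called 0, and all 5 had a positive log2 fold change (median 0.53). Of these, 1 had an unadjusted p under 0.05, against 25.2% of all genes. DESeq2 called 1 higher, where it called 7.88% of all genes. Of 12 macrophage and monocyte markers, 4 (Mrc1, Cd14, Chil3 and Cd68) were higher in mutant-labelled libraries, where 5.45% of all genes were, and the list summed to 1141 to 1418 CPM, against 758 to 935 CPM in controls. No marker of these lists was at 0 in all libraries. Their part in the levels of the interferon-stimulated genes was not tested.

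**Figure D2:**
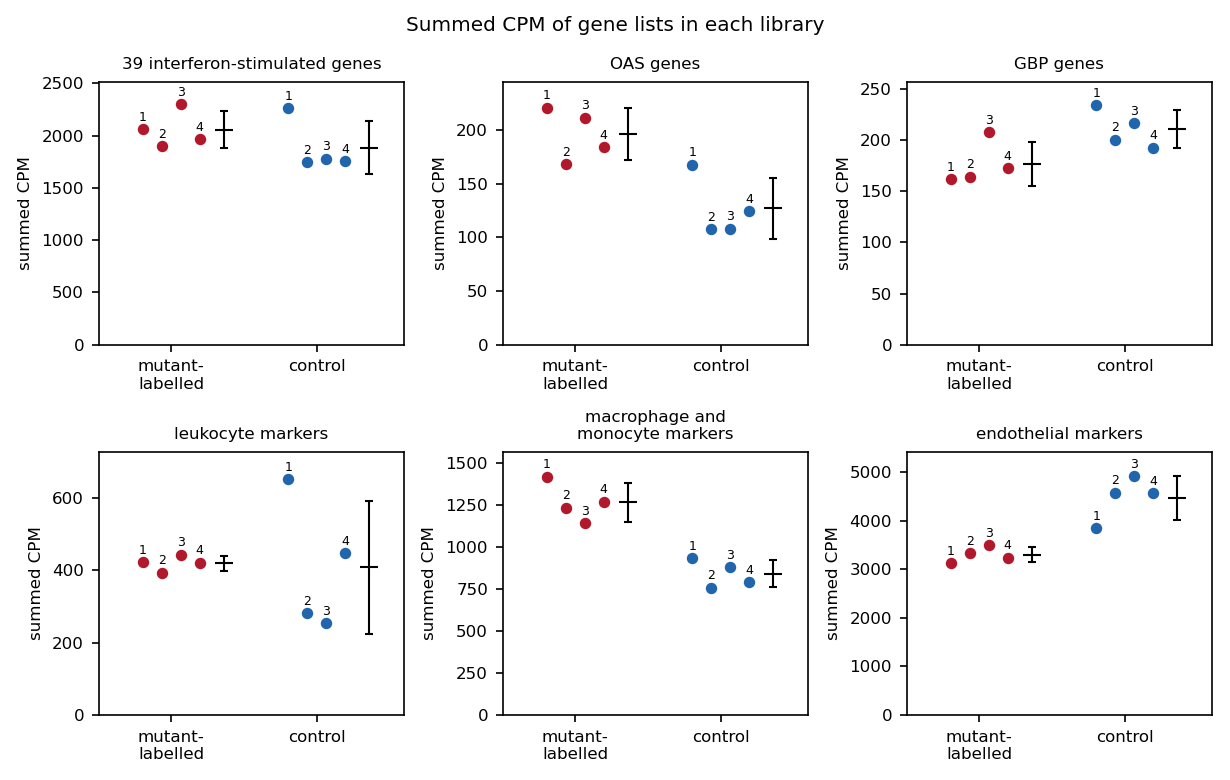
Summed CPM per library of all 39 members, of the OAS and GBP genes among them, and of the leukocyte, macrophage and monocyte, and endothelial marker lists; each point is a library numbered by replicate, mutant-labelled on the left and control on the right, and bars give the mean ± SD (n = 4 each). Control 1 has the highest leukocyte sum (652 CPM), and its member sum of 2261 CPM lies within the mutant-labelled range of 1901 to 2297 CPM.

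The OAS family held 2 of the 3 called genes. The active enzymes of the family bind double-stranded RNA and make short oligoadenylates that activate the nuclease RNase L. All 5 measured genes had a positive log2 fold change, with a median of 0.92, and Oasl1 and Oas2 passed the test. They lie in 2 clusters on GRCm38 chromosome 5, Oasl2 and Oasl1 next to each other and Oas2, Oas3 and Oas1a further along. The mean relative log2 level of the 5 genes was 0.728, 0.179, 0.599 and 0.320 in the mutant-labelled libraries, against -0.003, -0.635, -0.785 and -0.403 in controls, so the groups did not overlap.

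Oasl1 (chr5:114923240-114937915), which in the mouse restrains translation of Irf7 mRNA, had 12.3, 7.69, 9.13 and 8.51 CPM in mutant-labelled libraries, against 4.96, 2.89, 2.998 and 3.74 CPM in controls. The lowest mutant-labelled value exceeded the highest control. The means were 9.41 ± 2.03 and 3.65 ± 0.953 CPM (SD, n = 4 each), a 2.56-fold difference (95% interval 1.83 to 3.57, adjusted p = 0.00504 by edgeR's quasi-likelihood test), and the adjusted p stayed between 0.00213 and 0.0178 when each library was left out in turn. Per kilobase of exon it was among the least expressed members, at 3.61 CPM in mutant-labelled and 1.40 CPM in control libraries.

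Oas2 (chr5:120730333-120749853), an RNA-activated oligoadenylate synthase, had 56.6, 38.98, 50.6 and 42.7 CPM in mutant-labelled libraries, against 31.3, 19.98, 26.7 and 21.7 CPM in controls. Its groups did not overlap either, and mutant-labelled library 1 and control 1 led their groups. The means were 47.2 ± 7.93 and 24.9 ± 5.13 CPM (SD, n = 4 each), a 1.89-fold difference (95% interval 1.47 to 2.43, adjusted p = 0.00861 by edgeR's quasi-likelihood test). The call was lost without controls 2 and 3 (adjusted p = 0.0612).

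Oas3, the largest synthase of the family, had 13.1, 8.18, 12.2 and 8.29 CPM in mutant-labelled libraries, against 6.74, 4.89, 2.47 and 6.10 CPM in controls. These groups did not overlap, and the 2.05-fold difference (95% interval 1.30 to 3.23) missed the threshold (adjusted p = 0.0618 by edgeR's quasi-likelihood test). Oas1a had 25.96, 16.9, 27.1 and 20.9 CPM in mutant-labelled libraries, against 19.2, 12.5, 10.99 and 13.6 CPM in controls, and only control 1 reached into the mutant-labelled range (adjusted p = 0.0678). Oasl2, the most abundant of the family per kilobase, had 113, 96.4, 112.5 and 104 CPM in mutant-labelled libraries, against 105.5, 67.3, 65.1 and 79.4 CPM in controls. Control 1 again overlapped and the other 3 did not, and the difference was 1.34-fold (adjusted p = 0.108). Reads that map to several places were not counted, so Oas1a and its close paralogs lose the reads they share.

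**Figure D3:**
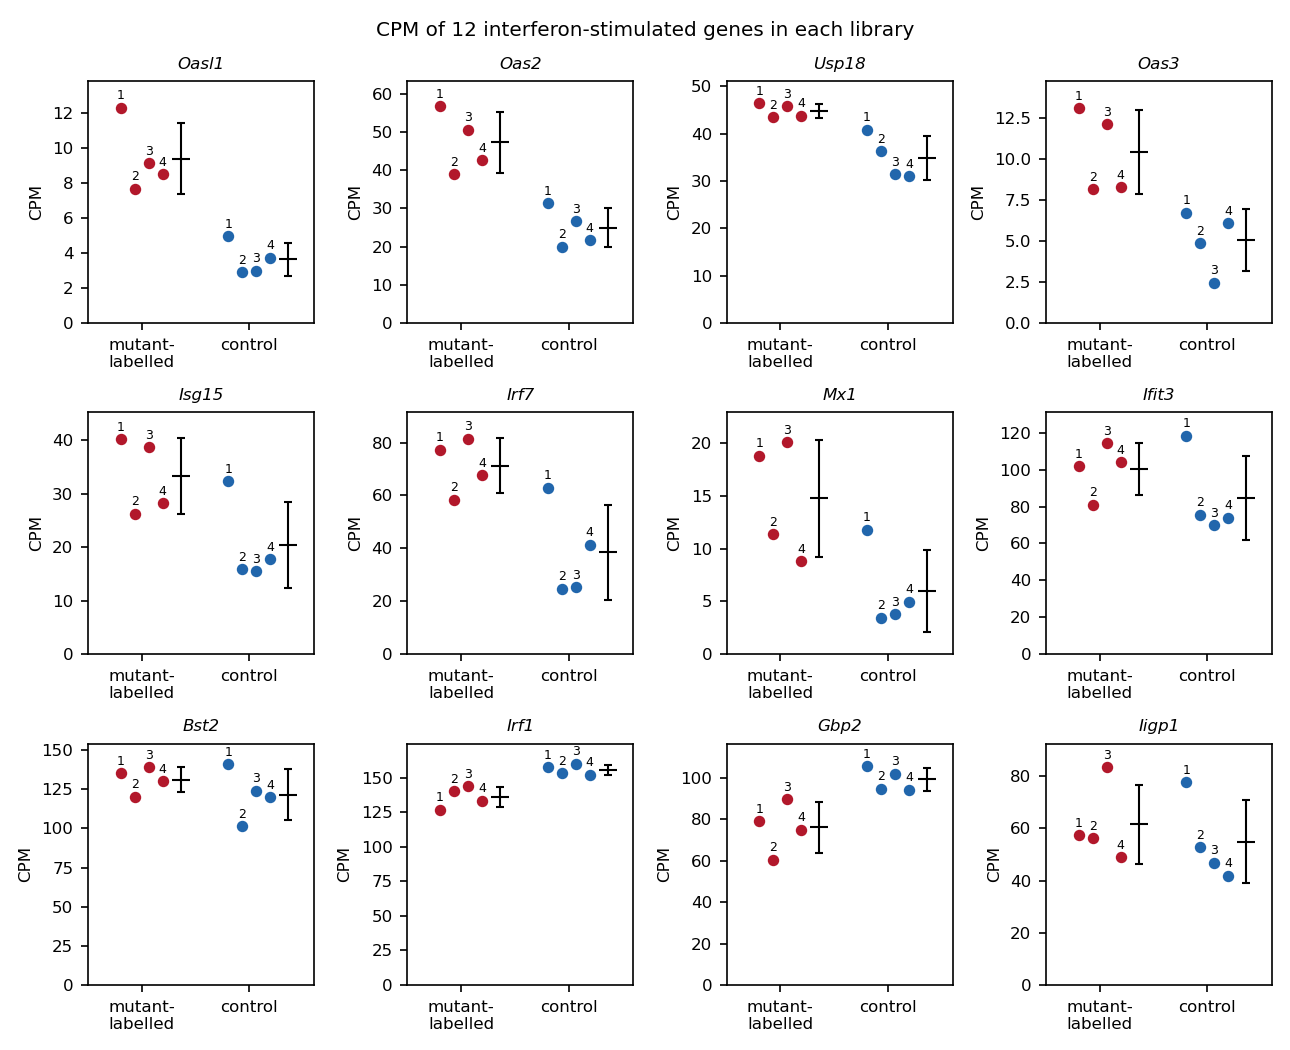
CPM of 12 members by library, mutant-labelled left and control right in each panel; points are numbered by replicate and the bars give the mean ± SD (n = 4 each). Oasl1, Oas2, Usp18 and Oas3 do not overlap between groups, control 1 stands above the other controls for Isg15, Irf7, Mx1 and Ifit3, and Irf1 and Gbp2 lie lower in every mutant-labelled library than in every control.

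The ISG15 system attaches and removes the ubiquitin-like protein ISG15. Usp18 (chr6:121245906-121270917), which removes ISG15 and dampens signalling at the type I receptor, had 46.5, 43.5, 45.8 and 43.8 CPM in mutant-labelled libraries, against 40.9, 36.3, 31.4 and 31.0 CPM in controls. The mutant-labelled values were tightly grouped, and all stood above every control. The means were 44.9 ± 1.46 and 34.9 ± 4.65 CPM (SD, n = 4 each), a 1.29-fold difference (95% interval 1.11 to 1.49) that passed the test in edgeR (adjusted p = 0.0472). That call was lost when any 1 library other than control 1 was left out (adjusted p up to 0.141), with median-ratio scaling (adjusted p = 0.0517) and with the GC trend removed (adjusted p = 0.0567).

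Isg15 had 40.2, 26.3, 38.7 and 28.2 CPM in mutant-labelled libraries, against 32.3, 15.9, 15.5 and 17.7 CPM in controls. Control 1 alone lay within the mutant-labelled range. The 1.63-fold difference did not pass (adjusted p = 0.118 by edgeR's quasi-likelihood test). Its adjusted p was 0.00513 without control 1 and 0.503 without controls 2 and 3. Control 1 was singled out by the members' own levels, so the lower value is no separate support. Trim25, a ubiquitin ligase that acts on the RNA sensor RIG-I, averaged 119.9 ± 7.27 CPM in mutant-labelled and 121 ± 7.19 CPM in control libraries (SD, n = 4 each; ratio 0.885 to 1.11 at 95%).

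Among the 5 nucleic acid sensors edgeR called 0, with 2 at an unadjusted p under 0.05 (Dhx58 and Zbp1), DESeq2 called 1 (Dhx58), and the median log2 fold change was 0.26. Dhx58 (LGP2), a regulator of the RIG-I-like helicases, had 18.6, 15.1, 19.4 and 15.2 CPM in mutant-labelled libraries, against 14.6, 10.3, 8.70 and 12.9 CPM in controls. These did not overlap, although the highest control came close to the lowest mutant-labelled library, and the 1.46-fold difference gave an adjusted p of 0.0797. Ddx58, which encodes RIG-I itself and was the most abundant sensor per kilobase, had 74.6, 73.7, 89.9 and 76.6 CPM in mutant-labelled libraries, against 77.7, 70.2, 72.4 and 80.5 CPM in controls. Its groups overlapped (ratio 1.05, 95% interval 0.920 to 1.19, adjusted p = 0.659). Zbp1, a sensor of left-handed nucleic acid that can trigger cell death, averaged 23.9 ± 4.34 and 14.1 ± 7.52 CPM in mutant-labelled and control libraries (SD, n = 4 each; adjusted p = 0.164). The large control SD came from control 1 at 25.2 CPM, with the others at 9.17 to 12.55 CPM. Eif2ak2, the RNA-activated kinase PKR that halts translation, averaged 40.4 and 33.7 CPM. Ifih1, which encodes MDA5, averaged 40.7 and 44.5 CPM, and neither passed.

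Of the 4 transcription factors edgeR called 0; Irf7 and Irf1 had an unadjusted p under 0.05 and were called by DESeq2, Irf7 higher and Irf1 lower. Irf7, the factor that amplifies type I interferon production, had 77.3, 58.3, 81.5 and 67.6 CPM in mutant-labelled libraries, against 62.9, 24.7, 25.2 and 41.4 CPM in controls. Control 1 overlapped the mutant-labelled range, controls 2 and 3 were far below it, and the 1.84-fold difference (95% interval 1.19 to 2.84) had an adjusted p of 0.0890. The span of Irf7 overlaps that of Phrf1, which had 11417 counts in all, and counting ignored strand. Any reads on exons of both were left out of both, and whether their exons overlap was not examined. Irf1, a factor induced strongly by interferon gamma, had 127, 140.1, 144 and 133.5 CPM in mutant-labelled libraries, against 158, 153, 160.2 and 152 CPM in controls. Every mutant-labelled library was below every control, and the log2 fold change of -0.20 had an adjusted p of 0.0961. Stat2 and Irf9, parts of the ISRE-binding complex, averaged 107 and 88.0 CPM in mutant-labelled libraries, against 96.3 and 89.7 CPM in controls, with overlapping groups. The span of Irf9 overlaps that of Rnf31, and the same holds for any reads on exons of both.

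The IFIT proteins bind foreign RNA and block its translation, and their 4 genes lie together on GRCm38 chromosome 19. With all libraries, edgeR and DESeq2 each called 0 of the 4, 0 had an unadjusted p under 0.05, and the adjusted p in edgeR ranged from 0.265 to 0.868. Ifit3, the most abundant per kilobase, had 102, 81.0, 114.5 and 104 CPM in mutant-labelled libraries, against 118.5, 75.6, 69.8 and 73.9 CPM in controls. Control 1 was the highest of all 8 libraries and the other controls were below every mutant-labelled library (1.19-fold, adjusted p = 0.407). Ifit1 had 56.6, 48.0, 62.1 and 52.1 CPM in mutant-labelled libraries, against 63.4, 37.1, 34.2 and 28.6 CPM in controls, the same arrangement (1.34-fold, adjusted p = 0.265). Ifit3b, whose promoter letters nearly match those of Ifit3, averaged 23.5 ± 3.33 and 20.8 ± 6.22 CPM in mutant-labelled and control libraries (SD, n = 4 each). Ifit2 differed from its neighbours in that all 4 controls lay within the mutant-labelled range, with means of 32.0 and 32.9 CPM. Reads shared by Ifit3 and Ifit3b would have been dropped from both.

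MX proteins are dynamin-like GTPases that block viral nucleocapsids. Mx1 had 18.8, 11.4, 20.1 and 8.78 CPM in mutant-labelled libraries, against 11.8, 3.44, 3.76 and 4.97 CPM in controls. Controls 2 to 4 were below all mutant-labelled libraries, and control 1 was above mutant-labelled libraries 2 and 4. The 2.43-fold difference had a wide 95% interval, from 1.27 to 4.65, and an adjusted p of 0.0957, and DESeq2 called Mx1 higher. Mx2 averaged 8.39 and 6.70 CPM in mutant-labelled and control libraries, and mutant-labelled library 3 alone, at 13.3 CPM, exceeded all controls.

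The guanylate-binding proteins (GBP) and immunity-related GTPases (IRG) attack the vacuoles of intracellular microbes and respond strongly to interferon gamma. All 3 GBP genes had a negative log2 fold change, under every scaling tried, with a median of -0.18. The IRG genes were mixed, with 2 positive (Iigp1 and Irgm1) and 2 negative (Igtp and Ifi47), and their median of -0.04 turned to 0.02 with library size scaling and to 0.06 without control 1. With all libraries edgeR called 0 of the 3 GBP and 0 of the 4 IRG genes, of which Gbp2 alone had an unadjusted p under 0.05, and the difference between the GBP and OAS genes was not tested. Gbp2 had 78.9, 60.4, 89.6 and 74.9 CPM in mutant-labelled libraries, against 105.5, 94.7, 102 and 94.2 CPM in controls. Every mutant-labelled library was lower than every control, at a log2 fold change of -0.38 ± 0.11 (SE) and adjusted p = 0.0663. DESeq2 called Gbp2 lower, and so did edgeR without mutant-labelled library 3 (adjusted p = 0.0390). Gbp3 and Gbp7, which neighbour Gbp2 on chromosome 3, averaged 46.0 and 54.7 CPM in mutant-labelled libraries, against 52.2 and 59.8 CPM in controls, and their groups overlapped.

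Of the IRG genes, Igtp, the most abundant per kilobase, had 44.2, 54.0, 58.7 and 46.3 CPM in mutant-labelled libraries, against 63.6, 48.9, 65.7 and 45.5 CPM in controls. The groups overlapped (adjusted p = 0.565). Igtp overlaps the span of Irgm2, so any reads on exons of both were left out of both, but whether their exons overlap was not examined. Ifi47 had the lowest p of the family, with 2.48, 2.51, 2.58 and 1.95 CPM in mutant-labelled libraries, against 2.99, 2.82, 2.88 and 2.87 CPM in controls. Although the groups did not overlap, the log2 fold change of -0.29 gave an adjusted p of 0.290. The span of Ifi47 overlaps that of Olfr56, which had 589 counts in all. Any reads on exons of both were left out of both, and whether their exons overlap was not examined. Iigp1 averaged 61.6 and 54.8 CPM and Irgm1 19.9 and 19.0 CPM in mutant-labelled and control libraries, with control 1 high for both (77.7 and 23.9 CPM).

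The 9 other effectors had a median log2 fold change of 0.07. EdgeR and DESeq2 called 0 of them, and 1 (Rsad2) had an unadjusted p under 0.05. Bst2 (tetherin), which holds budding virions at the cell surface, was the most abundant member per kilobase, at 145 CPM in mutant-labelled and 135 CPM in control libraries. On the CPM scale it had 135, 120.1, 139 and 130.1 in mutant-labelled libraries, against 141, 101, 124 and 119.9 in controls, and the groups overlapped (1.079-fold, 95% interval 0.924 to 1.26). Rsad2 (viperin), which makes a chain-terminating nucleotide, had 20.8, 12.7, 23.5 and 14.9 CPM in mutant-labelled libraries, against 18.8, 6.41, 6.23 and 8.97 CPM in controls. Control 1 again fell within the mutant-labelled range and the other 3 below it (1.76-fold, adjusted p = 0.192). Cmpk2, the mitochondrial nucleotide kinase encoded next to Rsad2 on the opposite strand, averaged 31.4 and 32.1 CPM and did not show that arrangement. Isg20, an RNA exonuclease, was nearly level in all libraries, from 33.3 to 36.03 CPM in mutant-labelled and 33.7 to 36.9 CPM in control libraries. Ifi44 averaged 19.3 and 14.4 CPM, Rtp4 37.3 and 32.3 CPM, Xaf1 45.4 and 43.3 CPM, Ifi35 60.6 and 61.5 CPM and Parp14 136 and 136 CPM in mutant-labelled and control libraries. Ifi44 was the only one of these 5 called without control 1.

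**Figure D4:**
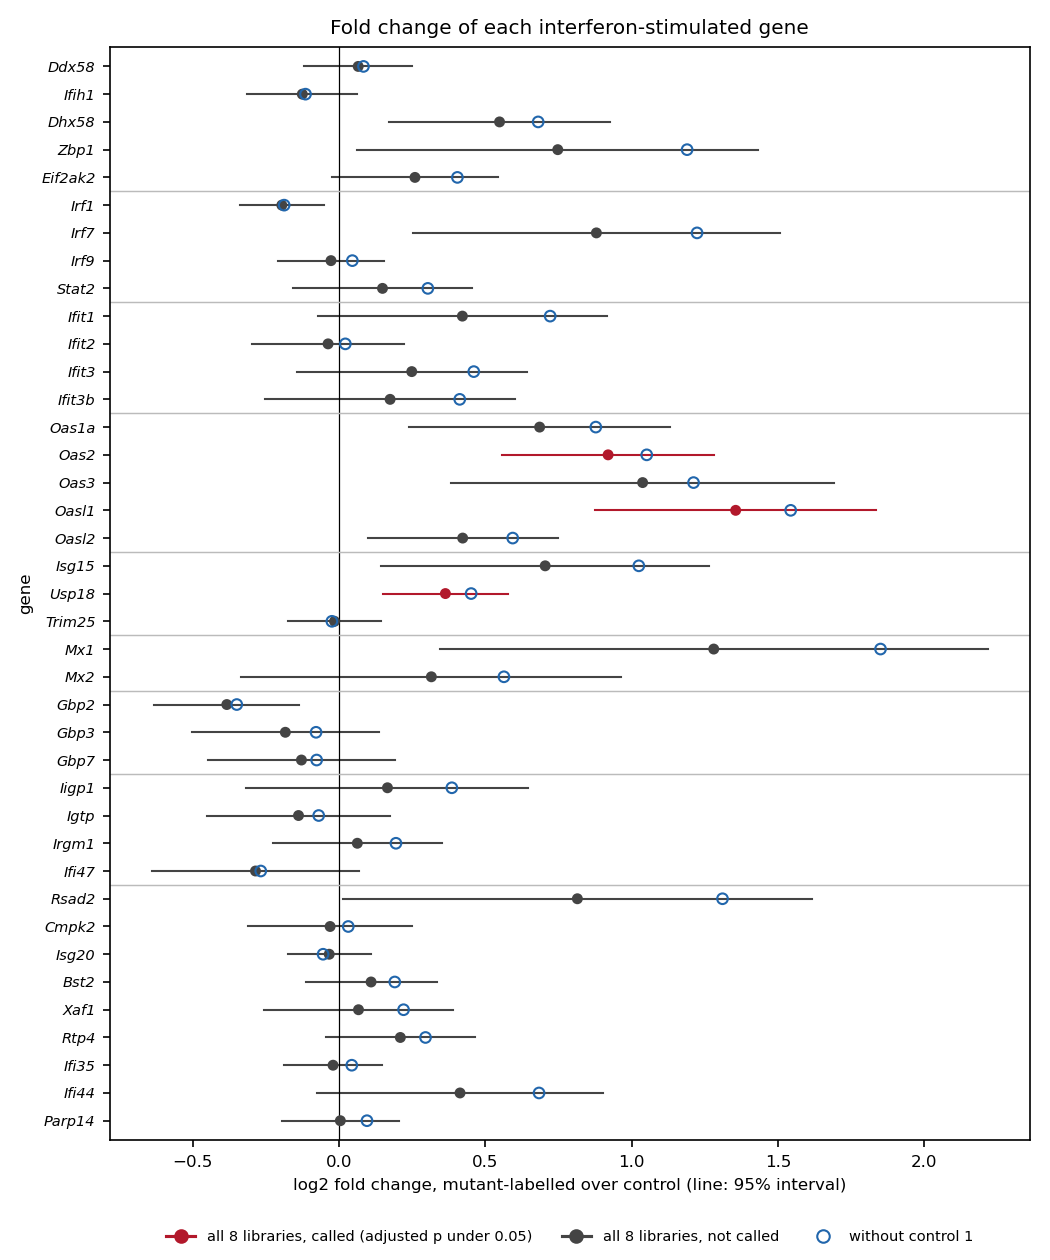
Log2 fold change of each member, mutant-labelled over control (points), with 95% intervals (lines), and the same value without control 1 (open circles); genes are grouped by role. The 3 called genes are red, the OAS points are all right of 0, the GBP points are all left of 0, and leaving out control 1 moves most points to the right, Mx1 to 1.85 and Oasl1 to 1.54.

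Levels of the members per kilobase of exon covered a wide range. In mutant-labelled libraries the order began with Bst2 (145 CPM per kilobase), Ifit3 (57.5) and Isg15 (47.4), and ended with Oas3 (1.48) and Ifi47 (0.961). In control libraries it began with Bst2 (135 CPM per kilobase), Ifit3 (48.4) and Gbp2 (39.4), and ended with Ifi47 (1.17) and Oas3 (0.714). Of the 3 called genes, Usp18 stood at 16.1 CPM per kilobase in mutant-labelled and 12.5 in control libraries, Oas2 at 10.6 and 5.60, and Oasl1 at 3.61 and 1.40.

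Other genes of the interferon pathway were read from a list of 105, of which 83 passed the filter; 5 were higher and 2 lower by the same test, where 5.45% and 2.36% of all genes were. Of the 21 ligand genes, 18 had 0 counts in every library, Ifnb1 among them, which allows up to 0.136 to 0.207 CPM. Ifng, the gene of interferon gamma, had 3 to 6 counts in mutant-labelled and 3 to 7 in control libraries. No ligand reached the filter.

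Of 6 receptor genes, 1 was lower, where 2.36% of all genes were. Ifnar2, a subunit of the type I receptor, had 47.55, 48.1, 46.6 and 50.3 CPM in mutant-labelled libraries, against 56.5, 55.1, 56.55 and 56.8 CPM in controls. The groups were narrow and did not overlap (log2 fold change -0.22, adjusted p = 0.0440), but the call was lost with scaling by library size alone (adjusted p = 0.118), with no filter (adjusted p = 0.159), and when any 1 library other than control 1 was left out (adjusted p up to 0.139). Its partner Ifnar1 averaged 81.3 ± 6.30 and 84.9 ± 3.65 CPM in mutant-labelled and control libraries (SD, n = 4 each; adjusted p = 0.626). Ifngr1, a subunit of the interferon gamma receptor and the most abundant of the list, averaged 175 ± 12.8 and 234 ± 52.3 CPM (SD, n = 4 each; adjusted p = 0.113).

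Of 12 signalling genes, only the feedback inhibitor Socs3 passed, where 5.45% of all genes were higher and 2.36% lower. At an unadjusted p under 0.05 there were 7, 4 higher and 3 lower, against 25.2% of all genes. DESeq2 called 2 higher and 2 lower, where it called 7.88% and 5.54% of all genes. Socs3 averaged 111 ± 12.2 CPM in mutant-labelled and 50.4 ± 20.7 CPM in control libraries (SD, n = 4 each), 2.20-fold higher (adjusted p = 0.0296), although the adjusted p reached 0.0827 when 1 library was left out.

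Among 16 genes of interferon induction, 1 was higher and 0 lower, where 5.45% and 2.36% of all genes were. Tmem173, which encodes the DNA-sensing adaptor STING, was 1.72-fold higher (45.6 ± 2.98 and 26.4 ± 5.80 CPM in mutant-labelled and control libraries, SD, n = 4 each; adjusted p = 0.00974). Of 49 further interferon-stimulated genes tested, 3 were higher and 1 lower, where 5.45% and 2.36% of all genes were, so these counts are near the background. Their median log2 fold change was 0.04. Lgals3bp, a secreted galectin-binding glycoprotein, was 1.63-fold higher (330.3 ± 13.2 and 202 ± 9.64 CPM, SD, n = 4 each; adjusted p = 0.000327), and control 1 at 209 CPM lay among the other controls. Apol9a was 2.53-fold higher (adjusted p = 0.0107) and Tgtp1, an IRG GTPase, 1.89-fold higher (adjusted p = 0.0472). The call of Tgtp1 was lost when any 1 library other than control 1 was left out (adjusted p up to 0.138), and with median-ratio scaling or no filter (adjusted p = 0.0502 and 0.0679). Ifi204, a DNA-binding protein of the PYHIN family, averaged 8.82 ± 2.66 CPM in mutant-labelled and 20.98 ± 3.88 CPM in control libraries (SD, n = 4 each), with a log2 fold change of -1.25 (adjusted p = 0.00724). Apol9a, Tgtp1 and Ifi204 have close paralogs, so reads shared with those copies were not counted for them. Without control 1, 14 of the listed pathway genes were higher and 5 lower, in the fit that called 8.86% of all genes higher and 6.52% lower.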

How the data were processed

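Bulk RNA sequencing of 8 mouse libraries (4 mutant-labelled, 4 control) was analysed from 1 table of raw fragment counts per gene. The authors' counts are fragments per gene, made with featureCounts 1.6.2 on GENCODE release M25 (GRCm38) per the file headers, ignoring strand and leaving out reads with several possible places or genes. STAR, Bowtie2 and Cufflinks are listed, with no role stated, in the submitters' processing notes. A stranded kit and an unstranded kit are both named in the labels. Gene length comes from the same deposited table, and symbols from GENCODE release M21 matched 99.53% of the identifiers. Total counts were 16981201, 18143332, 17414504 and 21673654 in mutant-labelled libraries 1 to 4, and 20454930, 15111663, 17986668 and 19684410 in controls 1 to 4.

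Genes passing filterByExpr (minimum count 10, minimum total 15) were scaled with TMM and compared with edgeR 4.0.16's quasi-likelihood test (R 4.3.3; robust dispersion, no covariate besides group). Benjamini-Hochberg adjustment ran over all genes tested, with a threshold of 0.05. All p-values called adjusted are from this test unless another tool is named. CPM use the TMM-scaled library sizes, and intervals are 95%. The members and lists were chosen with earlier results of these data known. Values per library are given for called members and, in each role, for the member most abundant per kilobase and the one with the lowest p; Oas1a and Oas3 were added after their values were seen. In the pathway lists the called genes, the most abundant gene of each list and Ifnar1, Ifnb1 and Ifng are covered by the rule, and not all are printed. A gene that the rule also names is not reported here. Ptprc is covered by it too, and Siglech was added after its values were seen. Alternatives were other scaling and filters, DESeq2 1.42.0, limma-voom 3.58.1, a replicate term, removal of a GC trend, and omission of libraries.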

Additional observations from a re-analysis of the deposited data

Results flagged for a closer look

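In 8 of 78 combinations of a member and a group, 1 library lay far from the other 3 of its group, by a gap test. Chance meets that test in about 1 of 20 groups of independent values, and the share over all genes is not given here. Members varied together: control 1 was the highest control for 33 of the 39, so its cases are not separate events. Control 1 was the high library in 4 of the 8. It had 119 CPM of Ifit3, with the other controls at 69.8 to 75.6 CPM, 30.1 CPM of Ifit3b, with the others at 17.5 to 18.1 CPM, 32.3 CPM of Isg15, with the others at 15.5 to 17.7 CPM, and 23.9 CPM of Irgm1, with the others at 16.9 to 17.8 CPM.

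In the remaining 4, other libraries stood apart. Mx2 was high in mutant-labelled library 3 (13.3 CPM, others 6.22 to 7.31 CPM). Ifi44 was low in mutant-labelled library 2 (14.5 CPM, others 20.5 to 21.4 CPM). Ifi47 was low in mutant-labelled library 4 (1.95 CPM, others 2.48 to 2.58 CPM). Gbp7 was low in control 4 (45.2 CPM, others 62.7 to 65.8 CPM).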

How the results depend on the processing

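The number of interferon-stimulated genes called higher (3 in the reported fit) was 9 with DESeq2, 6 with a replicate block, 1 without controls 2 and 3, 19 without controls 1 and 4, and 2 to 17 when each library was left out in turn. The number called lower (0) was 1 with no filter, 2 with DESeq2, 1 with the replicate block, 1 without controls 1 and 4, and 0 to 1 when each library was left out. Pathway genes that are no members were called higher (5) in 3 cases with no filter, 3 without controls 2 and 3, 29 without controls 1 and 4, and 3 to 14 with 1 library left out. They were called lower (2) in 1 case with library size scaling, 4 with DESeq2, 1 with the replicate block, 0 without controls 2 and 3 (8 of the 83 at an unadjusted p under 0.05 in the reported fit), 11 without controls 1 and 4, and 1 to 5 with 1 library left out. Of all genes tested, 3.23% were higher with no filter, 7.88% with DESeq2 and 5.1% with the replicate block. The share was 3.56% without controls 2 and 3, 21.5% without controls 1 and 4, and 3% to 8.86% with 1 library left out. Lower were 1.42% with no filter, 1.79% with library size scaling, 5.54% with DESeq2 and 2.19% with the replicate block. That share was 1.26% without controls 2 and 3, 19.2% without controls 1 and 4, and 0.85% to 6.52% with 1 library left out.

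Over all genes, 3750 were higher without controls 1 and 4, and 939 (DESeq2), 223 (without controls 2 and 3) and 3338 (without controls 1 and 4) were lower. Leaving out each library in turn gave 515 to 1517 higher and 146 to 1117 lower. Libraries with the same replicate number did not deviate together (correlations 0.007, 0.129, -0.123 and 0.134), and the replicate block gave 865 genes higher and 371 lower. Among the members it added calls for Irf7, Oas1a, Isg15, Mx1 and, lower, Gbp2, and lost that of Usp18 (adjusted p = 0.0523).

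The sign of 13 members was not stable, and none of these passed the test in the reported fit. Their log2 fold changes under the settings that turned the sign were as follows. Without controls 2 and 3: Cmpk2 0.043, Ddx58 -0.006, Ifit3b -0.036, Irgm1 -0.035, Isg20 0.009, Parp14 -0.061, Stat2 -0.026, Trim25 0.051 and Xaf1 -0.151. With library size scaling: Cmpk2 0.029, Ifi35 0.037, Ifit2 0.021, Irf9 0.030, Isg20 0.027 and Trim25 0.045. With the GC trend removed: Cmpk2 0.001 and Ifit2 0.002. Without controls 1 and 4: Ifi35 0.028 and Irf9 0.024. Parp14 was -0.005 with median-ratio scaling and with DESeq2. With 1 library left out the log2 fold changes ran from -0.134 to 0.031 for Cmpk2, -0.005 to 0.098 for Ddx58, -0.053 to 0.043 for Ifi35, -0.127 to 0.041 for Ifit2, -0.018 to 0.385 for Iigp1, -0.067 to 0.045 for Irf9, -0.009 to 0.194 for Irgm1, -0.038 to 0.095 for Parp14, -0.058 to 0.019 for Trim25 and -0.023 to 0.220 for Xaf1. The cause was not tested. Every member lay above the 0.207 CPM that 0 counts allow in the shallowest library, in all 8 libraries.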
